A study of Mus musculus with 7 samples.

Results

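The genes described here are 34 messenger RNAs reported in earlier work as targets of the microRNA miR-17 or of relatives that share its seed, chosen by name and without the reported targets that belong to signalling and cell cycle families. All 34 were found among the 27179 genes of the table by Entrez number. They were measured by RNA sequencing of 7 whole ankles, with the skin removed, of the DBA1 strain. All mice had collagen-induced arthritis, in which an immune response to collagen inflames and erodes joints, and all received an intra-articular injection of a lipoplex, a lipid carrier of nucleic acid. In 3 ankles the lipoplex carried an irrelevant control microRNA, and in 4 it carried a mimic, a synthetic double of miR-17-5p. The age and sex of the mice, the dose and the time between injection and dissection were not given in the sources used here. Nor is it stated that each ankle came from its own animal, and the p-values treat the 7 samples as independent. The spread behind them is that of these samples, and may in part be that between ankles of the same mouse, or technical.

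MicroRNAs are short RNAs that guide an Argonaute protein to messenger RNAs, chiefly through pairing of the seed, bases 2 to 8 of the microRNA, with the 3 prime untranslated region (UTR). Such pairing lowers translation and often shortens the life of the messenger, usually by a modest amount. The miR-17 family is transcribed from related clusters, of which the miR-17-92 cluster is the best known, and is studied as a promoter of cell growth and survival and as a regulator of inflammation in the joint.

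The members of the family are shown because every match below is to all or part of their shared seed. The sequences are those of RefSeq on GRCm38.p6, and the capitals mark bases 2 to 8.
mmu-miR-17-5p: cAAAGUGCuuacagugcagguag
mmu-miR-20a-5p: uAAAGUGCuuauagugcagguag
mmu-miR-20b-5p: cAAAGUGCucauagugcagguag
mmu-miR-93-5p: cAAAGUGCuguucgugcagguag
mmu-miR-106a-5p: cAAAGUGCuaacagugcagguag
mmu-miR-106b-5p: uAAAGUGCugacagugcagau
From miR-17-5p, miR-106a-5p differed at 1 base, miR-20a-5p and miR-20b-5p at 2 each, miR-93-5p at 4 and miR-106b-5p, counting its missing end, at 5. The mimic therefore carries the seed of these 5 mouse microRNAs. In the RefSeq table mmu-miR-6383 shared the same 7 bases but differed at 15 others, and it is not counted in the family here. Mature microRNAs were not analysed here. The row for Mir17hg, the host transcript of the miR-17-92 cluster, lies downstream of the miR-17 hairpin and cannot show a synthetic mimic. It stood at 1.75, 3.86 and 3.40 FPKM in control replicates 2, 3 and 5 and at 3.07, 1.98, 2.84 and 2.72 FPKM in mimic replicates 1, 2, 4 and 5, with overlapping groups. FPKM is a count of reads scaled to exon length and to library depth.

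All 34 members held a match to the miR-17-5p seed in the longest UTR annotated for the gene (GENCODE, mouse release M21, GRCm38). Matches were counted on the messenger strand alone. The 8mer GCACTTTA pairs with bases 2 to 8 and has an A opposite base 1. The 7mers are GCACTTT and CACTTTA, both contained in the 8mer and counted only outside it. The shorter CACTTT, a 6mer, was counted where it stood alone. An 8mer was present in 18 members (52.9%), against 534 of the 12615 tested genes with an annotated UTR (4.23%). A 7mer or 8mer was present in 2701 of those genes (21.4%), and at least 2 such matches in 13 members (38.2%) and in 4.53% of the genes. Members had longer UTRs, with a median of 2260 bases against 1148 bases. Among the 3774 genes whose UTR fell between the members' quartiles of length, 32.9% held a 7mer or 8mer. Many targets are reported because a seed match was found first, so the presence of matches is not independent evidence, and a match is a run of letters, not proof of a working site.

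UTR stretches from the members that differed most between the groups, in either direction, are printed so that the letters can be set beside the expression values. Each is a stretch of 30 bases of the messenger that ends with the match, in capitals, on the transcribed strand.
Hif1a: gaaaatatgatgtttggttttatGCACTTT
Runx1: tctttgtcttacatagagcagcaGCACTTT
Zbtb4: actcccgtaaatcttgtttctgGCACTTTA
Mylip: ttaaagctagaagcctacactgtCACTTTA
Pkd1: cctgtccacatatggggcttctGCACTTTA
Pkd2: tgaccaattgttataattttctGCACTTTA
Txnip: tgattctaaggtgatgttcttaGCACTTTA
Epha4, first match: tcgaatagtttacctcatccatGCACTTTA
Epha4, second match: ccatgcactttaattgaagaactGCACTTT
These stretches lie on mm10 at chr12:73946655-73946684 (+) for Hif1a, chr16:92603810-92603839 (-) for Runx1, chr11:69781249-69781278 (+) for Zbtb4, chr13:45411727-45411756 (+) for Mylip, chr17:24595710-24595739 (+) for Pkd1, chr5:104503799-104503828 (+) for Pkd2 and chr3:96561219-96561248 (+) for Txnip. Each of these is in the UTR part of the last exon. The pair in Epha4, at chr1:77373677-77373706 (-) and chr1:77373659-77373688 (-), is in exon 17 of 18 and begins 49 and 68 bases after the stop codon, so that the second printed stretch contains the first match in lower case. The 2 members that stood lowest in mimic ankles relative to controls, Hif1a and Runx1, each had a single 7mer and no 8mer, whereas Pkd1, Pkd2, Txnip and Zbtb4, which stood higher, each had an 8mer. Of the 17 tested members with an 8mer, however, 9 had a log2 fold change below zero, Pfkp, Crk and Rhoc among them. Zbtb4 held 2 further 7mers and Txnip 1. Mylip had no 8mer and 1 match of the 7mer that ends in A. Counting 6mers that stood alone, Runx1 held 5 more matches, Mylip 2 and Txnip 1.

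**Figure D1:**
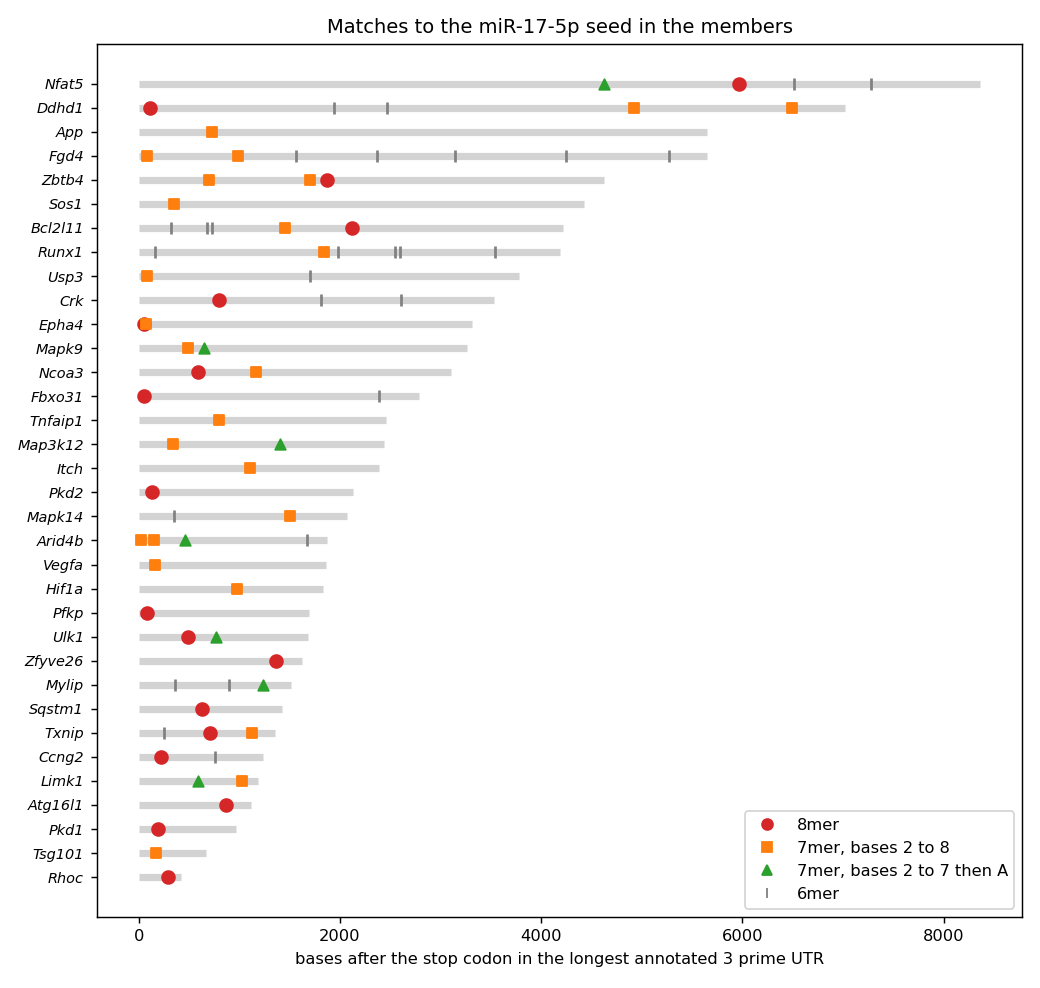
Each row is a member and each grey bar its longest annotated 3 prime UTR, drawn to scale in bases after the stop codon; symbols mark matches to the seed by kind. The 50 matches of 7 or 8 bases are 18 8mers, 25 7mers that pair with bases 2 to 8 and 7 that pair with bases 2 to 7 before an A, and every row holds at least 1.

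Of the 50 matches of at least 7 bases in the members, 23 lay in the first 25% of the UTR, and 47 lay inside the exons over which the deposited values were counted. The other 3 belonged to Ddhd1 and Fgd4, whose longest UTRs run past the counted exons. In 33 of 34 members every such match was in the last exon, the exception being Epha4.

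Most members differed little between the group means, and 5 had groups without overlap. Of 34, 33 passed the filter of a mean of 1 FPKM, and Epha4 did not. With limma, an adjusted p under 0.05 was reached by 0 of 13418 genes in either direction (0.0%), and so by 0 members. At an unadjusted p under 0.05, 3 members were higher in mimic ankles, Mylip, Pkd1 and Zbtb4 (9.09% of members, against 7.48% of genes tested), and 2 were lower, Hif1a and Runx1 (6.06%, against 10.1%). Limma-voom on the reads behind the values gave 0 members after adjustment. Before it, 4 were higher, Pkd2 beside the 3 above, and 2 were lower. The share of all genes before adjustment was not counted in that fit. No overlap of the groups was found, with mimic values all higher, at Mylip, Pkd1, Pkd2 and Zbtb4 (12.1% of members, against 6.48% of genes) and, with mimic values all lower, at Runx1 (3.03%, against 8.84%). These shares are near those of all genes, given numbers of members this small.

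The median log2 fold change of the members, mimic minus control, was -0.053, and that of all genes tested was -0.0063. A lower mean log2 level in mimic ankles was found in 21 of 33 members (63.6%), one of them Fbxo31 at -2.8e-05, against 51.7% of genes tested. Without control replicate 3 the members' median was 0.0069, so its sign rests on that library. Most members moved little: 27 of 33 had a log2 fold change smaller than 0.2 in size, as did 69.8% of genes tested, and the median size was 0.077 against 0.12. Members with an 8mer had a median of -2.8e-05 (n = 17, 9 below zero) and those with 7mers alone -0.063 (n = 16, 12 below zero). Over all genes tested the medians were -0.0078 with an 8mer, -0.0084 with 7mers alone, -0.015 with a 6mer alone and -0.0065 with none of these. In the same order, 52.6%, 52.2%, 54.1% and 51.7% of these genes lay below zero.

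**Figure D2:**
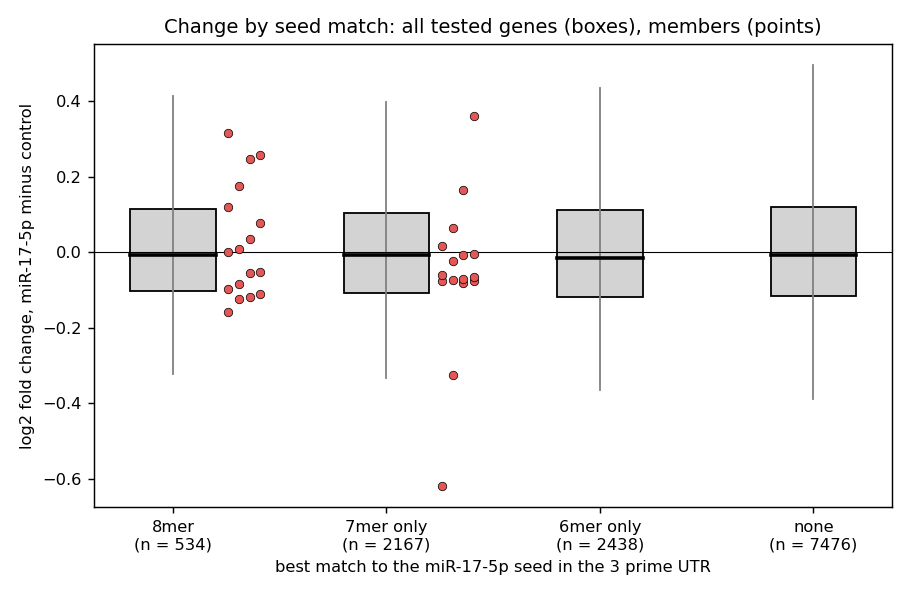
Log2 fold change (mimic minus control) by the best seed match in the 3 prime UTR: boxes give the quartiles and median of all tested genes of that class, thin lines their 5th to 95th percentiles, and points the tested members (17 with an 8mer, 16 with 7mers alone; no member lacks a match). The class medians of all genes lie between -0.0151 and -0.0065, and the lowest point, Hif1a at -0.62, is in the 7mer class.

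Hif1a and Vegfa are the members grouped under hypoxia and blood vessel growth. Hif1a encodes the oxygen-regulated subunit of hypoxia-inducible factor 1 (chromosome 12, 73907867 to 73947530), and Vegfa the vascular growth factor that this factor induces. Hif1a stood at 57.7, 85.1 and 90.2 FPKM in control replicates 2, 3 and 5 and at 45.1, 47.9, 61.4 and 45.1 FPKM in mimic replicates 1, 2, 4 and 5. Control replicates 3 and 5 were above every mimic ankle, but control replicate 2 was below mimic replicate 4. The means were 77.7 ± 17.5 and 49.9 ± 7.77 FPKM (SD, n = 3 and n = 4, here and below), and the difference was the largest of the members on the log2 scale. Its log2 fold change was -0.62 (SE 0.18, 95% interval -1.03 to -0.20, limma adjusted p = 0.187). Without control replicate 2 it was 1 of 318 genes that passed (-0.82, limma adjusted p = 0.0431, against 0.0431 to 0.527 over all alternatives). Vegfa stood at 20.0, 23.6 and 20.6 FPKM in controls and at 19.9, 18.4, 21.3 and 21.5 FPKM in mimic ankles, fully intermixed. Its log2 fold change of -0.075 had a 95% interval of -0.27 to 0.12.

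Neutrophils of inflamed joints also use hypoxia-inducible factor 1. The summed level of 6 neutrophil markers, none of them at 0 in any library, was 2890, 5604 and 5306 FPKM in control replicates 2, 3 and 5 and 2994, 2449, 2715 and 1209 FPKM in mimic replicates 1, 2, 4 and 5. All 6 had a lower mean in mimic ankles. The libraries with the most neutrophil transcript, control replicates 3 and 5, were those with the most Hif1a. The order did not match below them: mimic replicate 1 had the third highest neutrophil sum and, with mimic replicate 5, the lowest Hif1a. The part of neutrophil content in the Hif1a difference was not tested. In whole ankles, fewer cells of a type and less RNA per cell cannot be told apart.

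Genes that hypoxia-inducible factor 1 is known to activate were read from a list of 15, all tested. None passed over all genes. At an unadjusted p under 0.05, 0 of the 15 were higher and 4 were lower, beside 7.48% and 10.1% of all genes tested. The median log2 fold change was -0.15, with 11 genes below 0 and 4 above, the highest at 0.38. Slc2a1, the glucose transporter GLUT1, had means of 23.9 ± 5.29 FPKM (control) and 12.7 ± 1.33 FPKM (mimic), without overlap (log2 fold change -0.87, SE 0.16, limma adjusted p = 0.173). Without control replicate 2, Slc2a1 was 1 of 318 genes that passed (-1.06, limma adjusted p = 0.0219, against 0.0219 to 0.524 over all alternatives). Eno1, a glycolytic enzyme, stood at 178 ± 43.5 and 128 ± 13.3 FPKM, and Adm, the vasodilator adrenomedullin, at 11.1 ± 3.50 and 6.66 ± 1.99 FPKM. The fourth, P4ha1, a collagen prolyl hydroxylase, stood at 39.1 ± 4.47 and 33.4 ± 1.88 FPKM. Slc2a1 kept an unadjusted p under 0.05 in all 7 fits that left out 1 library, Eno1 in 4, P4ha1 in 3 and Adm in 2. Without control replicate 5 the log2 fold change went from -0.45 to -0.26 for Eno1 and from -0.22 to -0.13 for P4ha1.

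**Figure D3:**
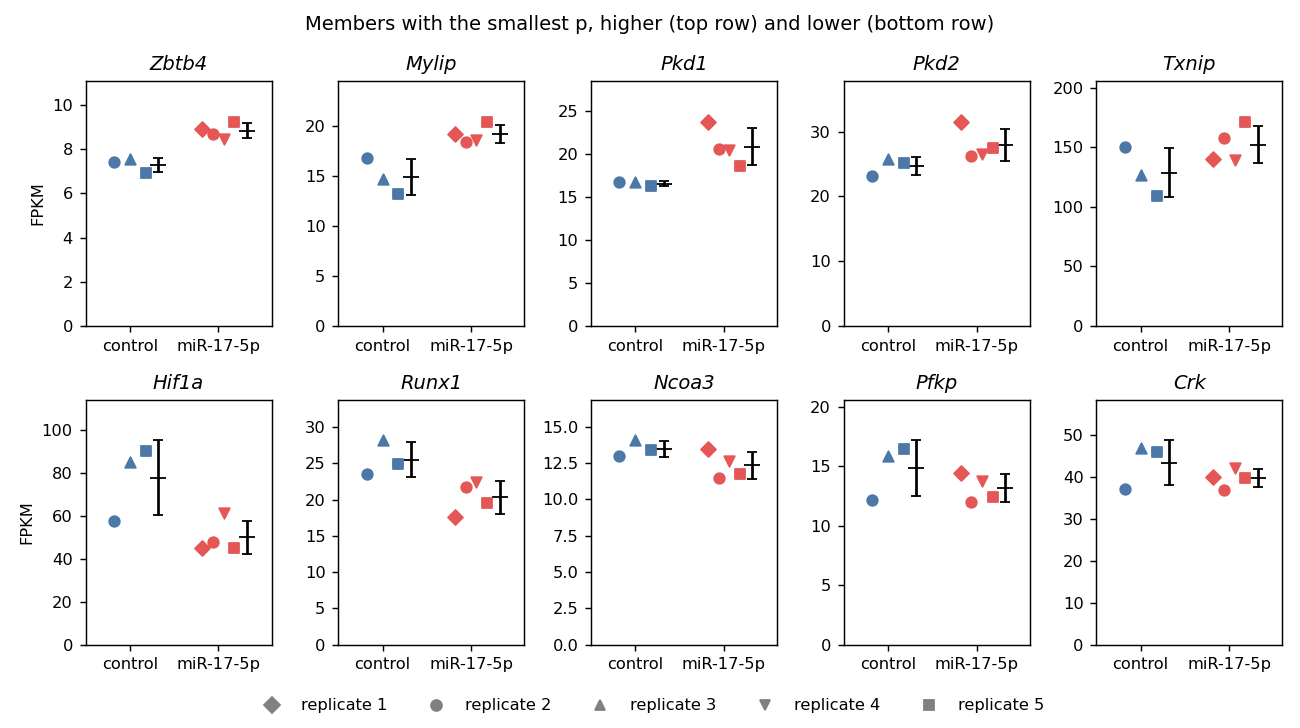
FPKM by library for the 5 members with the smallest p among those higher in mimic ankles (top) and the 5 among those lower (bottom); symbols give the replicate number, black bars the mean ± SD, and axes start at 0. Groups separate at Zbtb4, Mylip, Pkd1, Pkd2 and Runx1, while control replicate 2 sits with the mimic ankles at Hif1a, Pfkp and Crk.

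The transcription factors and chromatin proteins of the list split in direction. Runx1, a Runt-domain factor needed for blood stem cells and active in cartilage and myeloid cells (chromosome 16, 92601466 to 92826066), stood at 23.5, 28.2 and 24.9 FPKM in controls and at 17.5, 21.8, 22.5 and 19.5 FPKM in mimic ankles. Every mimic value was below every control value. The log2 fold change was -0.32 (SE 0.10, 95% interval -0.56 to -0.083, limma adjusted p = 0.21). Without control replicate 3 it was -0.25, with an unadjusted p of 0.0593.

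Zbtb4, a repressor that binds methylated DNA (chromosome 11, 69765912 to 69784026), stood at 7.43, 7.53 and 6.94 FPKM in controls and at 8.92, 8.68, 8.44 and 9.23 FPKM in mimic ankles. Here every mimic value was the higher, and the spread within each group was small (SD 0.318 and 0.339 FPKM). The log2 fold change was 0.26 (SE 0.059, 95% interval 0.12 to 0.39, limma adjusted p = 0.174). Zbtb4 had the smallest p of the members, and it carries 3 matches of at least 7 bases, one of them an 8mer.

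Ncoa3, a coactivator of nuclear receptors, stood at 13.0, 14.1 and 13.4 FPKM in controls and at 13.4, 11.5, 12.6 and 11.8 FPKM in mimic ankles. Its groups overlapped through mimic replicate 1, and the log2 fold change was -0.12 (95% interval -0.29 to 0.039). Arid4b, a subunit of a histone deacetylase complex, stood at 5.38 ± 0.619 and 5.12 ± 0.579 FPKM, and Nfat5, the regulator of the response to osmotic stress, at 9.64 ± 0.876 and 9.89 ± 0.730 FPKM. For Arid4b and Nfat5 the difference of the means was smaller than the SD of either group, and both changed sign when 1 library was left out.

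Among genes of the ubiquitin system, Mylip stood apart. It encodes the ligase IDOL, which marks the LDL receptor for breakdown (chromosome 13, 45389742 to 45411940). Mylip stood at 16.8, 14.7 and 13.2 FPKM in controls and at 19.3, 18.4, 18.6 and 20.4 FPKM in mimic ankles. No value overlapped, and the log2 fold change of 0.36 (SE 0.087, 95% interval 0.16 to 0.56, limma adjusted p = 0.174) was the highest of the tested members. Without control replicate 2, Mylip was 1 of 318 genes that passed (0.45, limma adjusted p = 0.0427, against 0.0427 to 0.524 over all alternatives).

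The other genes of this group showed no separation. Tnfaip1, an adaptor of cullin ligases, stood at 29.5, 28.9 and 32.4 FPKM in controls and at 27.8, 30.2, 28.0 and 28.8 FPKM in mimic ankles, with a log2 fold change of -0.077 (95% interval -0.22 to 0.067). Itch, a HECT-type ligase that restrains T cell activation, stood at 12.3 ± 1.03 and 11.6 ± 0.641 FPKM. Usp3, which removes ubiquitin from histones, stood at 13.0 ± 0.349 and 13.2 ± 1.42 FPKM, with mimic replicate 1 above the rest at 15.3 FPKM. Fbxo31, an F-box protein, stood at 14.9, 12.3 and 8.71 FPKM in controls and at 9.70, 13.4, 10.9 and 13.2 FPKM in mimic ankles. Its control libraries spanned the whole mimic range, and its 95% interval of the log2 fold change, -0.44 to 0.44, was the widest of the tested members.

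Pkd1 and Pkd2 encode the polycystins, a membrane receptor-like protein and its partner cation channel, which bone cells and chondrocytes as well as kidney use. Both were higher in every mimic ankle than in any control. Pkd1 (chromosome 17, 24549950 to 24596514) stood at 16.8, 16.7 and 16.3 FPKM in controls and at 23.8, 20.6, 20.5 and 18.6 FPKM in mimic ankles. The controls lay close together and the mimic ankles spread more widely, with replicate 1 highest. The log2 fold change was 0.32 (SE 0.083, 95% interval 0.12 to 0.51, limma adjusted p = 0.176). Of its counted exon bases, 4.08% also belong to Tsc2, whose reads cannot be told apart there since the strand setting is not given.

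Pkd2 (chromosome 5, 104459457 to 104505819) stood at 23.1, 25.7 and 25.1 FPKM in controls and at 31.5, 26.3, 26.6 and 27.4 FPKM in mimic ankles. Mimic replicate 1 was again the highest, and the gap between the groups was narrow. The log2 fold change was 0.18 (SE 0.079, 95% interval -0.0091 to 0.36, limma adjusted p = 0.303), so Pkd2 missed an unadjusted p of 0.05 in this fit. The limma unadjusted p was 0.0384 with median-of-ratios scaling, 0.0341 with quantile normalization, 0.0366 with limma-voom and 0.157 with the replicate number as a block. The summed level of 6 bone markers was also higher in every mimic ankle, between 7854 and 8388 FPKM against 7196 to 7466 FPKM in controls, with all 6 higher on average and none at 0. The summed level of 6 adipocyte markers was higher too, between 114.9 and 168 FPKM against 60.9 to 111 FPKM, again with all 6 higher on average. All 6 cartilage markers, all 6 muscle markers and all 5 erythroid markers found also had higher means in mimic ankles, with mean sums of 732 and 813 FPKM, 2684 and 4457 FPKM, and 139.7 and 365 FPKM in control and mimic ankles, though each of these sums overlapped between the groups. Mean sums were lower in mimic ankles for macrophage markers (730 and 662 FPKM) and synovial fibroblast markers (2103 and 1944 FPKM), also with overlap. In each of these lists 2 of 6 markers had higher means. The part of any of these tissues in the polycystin, Zbtb4 and Mylip differences was not tested.

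**Figure D4:**
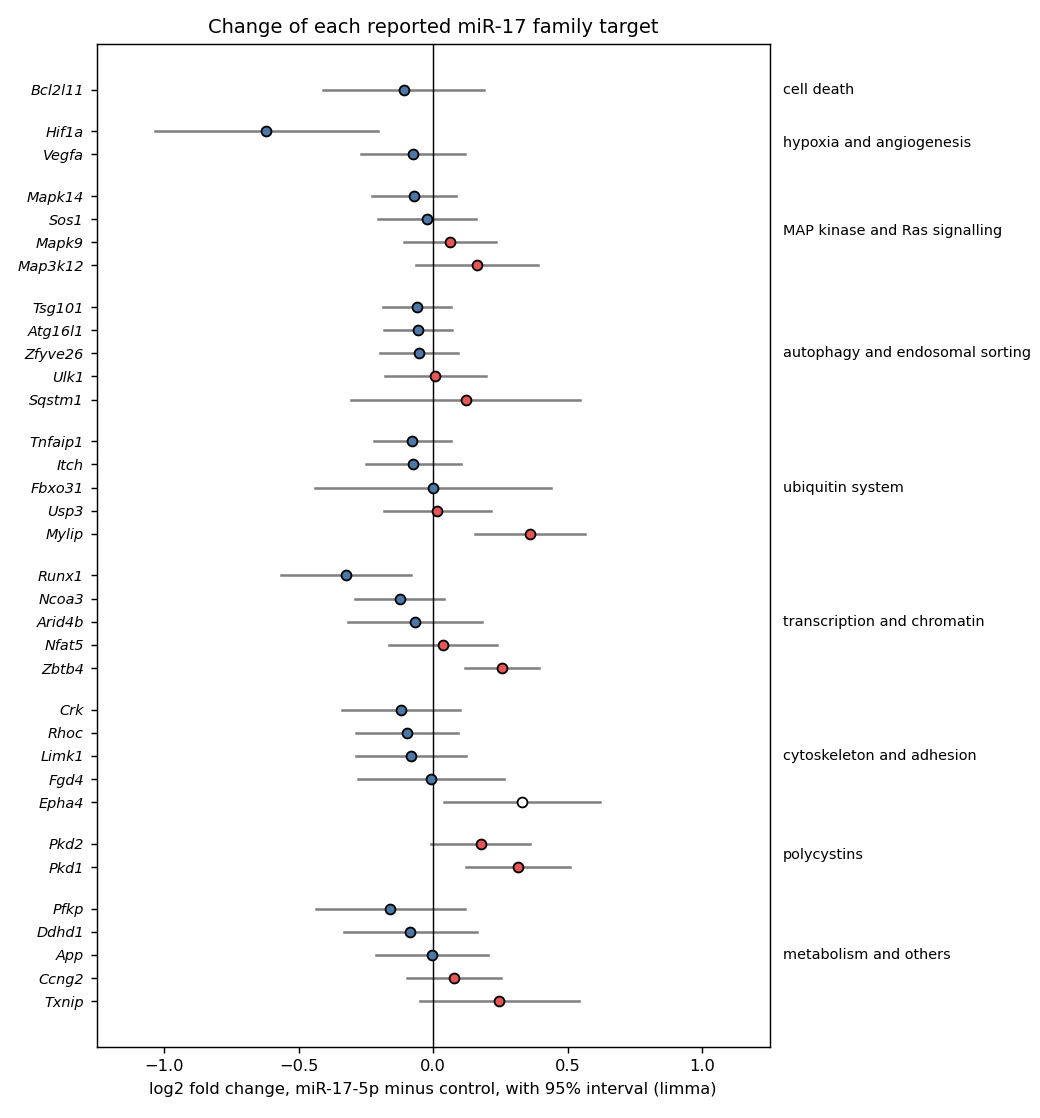
Log2 fold change (mimic minus control) of each member with its 95% interval from limma, grouped by role; red points are above 0, blue below, and the open point is Epha4, taken from the fit without a filter on low values. Intervals leave 0 out at Hif1a, Runx1, Zbtb4, Mylip and Pkd1, and at Epha4 in its own fit, before adjustment for the number of genes.

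The groups overlapped at all 4 kinases and Ras signalling genes of the list. Mapk14 encodes p38 alpha, a stress kinase that drives production of inflammatory cytokines, and stood at 33.6, 38.1 and 36.1 FPKM in controls and at 34.8, 31.6, 35.4 and 34.8 FPKM in mimic ankles. Its groups overlapped, and the log2 fold change of -0.072 had a 95% interval of -0.23 to 0.084. Mapk9, which encodes the kinase JNK2, stood at 11.1 ± 0.667 and 11.6 ± 0.804 FPKM, and Sos1, an exchange factor that switches Ras on, at 3.63 ± 0.309 and 3.56 ± 0.143 FPKM. Map3k12, the dual leucine zipper kinase upstream of JNK, stood at 3.49 ± 0.176 and 3.99 ± 0.467 FPKM. Its value is uncertain, since 28.4% of its exon bases are shared with Pcbp2.

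Other genes of the JNK and p38 cascade, 11 of 12 of which passed the filter, had a median log2 fold change of -0.071. At an unadjusted p under 0.05, 1 was higher and 3 were lower, beside 7.48% and 10.1% of all genes tested, and 0 passed over all genes in either direction. The 3 were Mapk11, the p38 beta kinase, at 7.11 ± 0.548 and 5.78 ± 0.197 FPKM, Map3k5, the kinase ASK1, at 6.80 ± 0.401 and 5.41 ± 0.438 FPKM, and Mapk13, p38 delta, at 5.72 ± 1.12 and 3.73 ± 0.988 FPKM. The higher gene was Map2k6, a kinase that activates p38, at 3.27 ± 0.324 and 3.96 ± 0.443 FPKM. Mapk11 and Map3k5 kept an unadjusted p under 0.05 in all 7 fits that left out 1 library, Mapk13 in 3 and Map2k6 in 1.

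None of the autophagy and endosomal sorting genes of the list separated the groups. Ulk1, the kinase that starts autophagosome formation, stood at 16.1, 15.4 and 12.9 FPKM in controls and at 15.0, 15.4, 14.4 and 14.7 FPKM in mimic ankles. All mimic values fell within the control range, and the 95% interval of the log2 fold change was -0.18 to 0.20. Atg16l1, part of the complex that attaches LC3 to membranes, stood at 13.6 ± 0.330 and 13.1 ± 0.534 FPKM. Tsg101, an ESCRT protein of endosomal sorting, stood at 25.7 ± 0.695 and 24.7 ± 0.994 FPKM, and Zfyve26, which acts in autophagy and lysosome reformation, at 4.63 ± 0.168 and 4.44 ± 0.142 FPKM. The intervals of these 3 excluded log2 fold changes below -0.20.

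Sqstm1, the autophagy receptor p62, stood at 211 FPKM in control replicate 2, 136 in replicate 3 and 125 in replicate 5, and at 151, 188, 161 and 168 FPKM in mimic replicates 1, 2, 4 and 5. Its controls lay on both sides of the mimic ankles, and the log2 fold change was 0.12 (95% interval -0.30 to 0.55). The 3 libraries with the most Sqstm1, control replicate 2 and mimic replicates 2 and 5, also had the most of 6 skeletal muscle markers, at 4913, 6137 and 6647 FPKM in sum, and control replicate 5 had the least of both, with 870.1 FPKM of muscle markers. The same 3 libraries were highest, and control replicate 5 lowest, for Fbxo31 and Txnip. The part of muscle content in these values was not tested.

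A list of 20 core autophagy genes, all tested, had a median log2 fold change of 0.023. At an unadjusted p under 0.05, 1 was higher and 2 lower, close to the 7.48% and 10.1% of all genes tested, and 0 passed over all genes. Wipi1, which binds the forming autophagosome, stood at 44.3 ± 2.15 and 39.0 ± 1.07 FPKM, and Atg3, which conjugates LC3 to lipid, at 32.4 ± 3.98 and 27.3 ± 1.62 FPKM. Gabarapl1, a relative of LC3, was the 1 higher gene at that p, at 34.5 ± 5.89 and 41.5 ± 1.90 FPKM. Regardless of p, 13 of the 20 genes had a log2 fold change above 0 and 7 below. Leaving out 1 library, Wipi1 kept an unadjusted p under 0.05 in 6 of 7 fits and Atg3 and Gabarapl1 in 2 each. Without control replicate 5 the log2 fold change of Gabarapl1 went from 0.27 to 0.15.

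Bcl2l11 encodes BIM, a trigger of apoptosis and one of the best known targets of the miR-17-92 cluster in lymphocytes. It stood at 10.3, 9.09 and 10.3 FPKM in controls and at 10.8, 8.33, 10.1 and 7.54 FPKM in mimic ankles. The mimic ankles held both the highest and the lowest values, and the log2 fold change was -0.11 (95% interval -0.41 to 0.19, and -0.19 to -0.023 over the fits that left out 1 library). Its UTR of 4218 bases held an 8mer and a 7mer. Across 12 other genes of the BCL-2 family, all tested, 0 were higher and 1 lower at an unadjusted p under 0.05, near the 7.48% and 10.1% of all genes tested, and 0 passed over all genes. The median log2 fold change was -0.019. The lower gene was Mcl1, which keeps neutrophils and other cells alive, at 126 ± 10.9 and 106 ± 11.7 FPKM, and it kept that p in 2 of the 7 fits that left out 1 library.

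Genes of the cytoskeleton and of adhesion included Epha4, an ephrin receptor and the least expressed member, which the filter removed. It stood at 0.915, 0.616 and 0.554 FPKM in controls and at 0.953, 1.03, 0.889 and 1.10 FPKM in mimic ankles, from at least 107 reads per library. Mimic replicate 4 was below control replicate 2, so the groups overlapped. Without a filter on low values the log2 fold change was 0.33 (SE 0.12, limma adjusted p = 0.309). Crk, an adaptor of focal adhesions, stood at 37.1, 46.8 and 46.0 FPKM in controls and at 39.8, 36.9, 42.0 and 39.8 FPKM in mimic ankles. Control replicates 3 and 5 were above all mimic ankles and control replicate 2 among the lowest. Rhoc, a small GTPase of cell movement, stood at 140.3 ± 13.5 and 131 ± 5.51 FPKM, and Limk1, a kinase that stabilises actin, at 7.92 ± 0.665 and 7.45 ± 0.627 FPKM. Fgd4, an activator of the GTPase CDC42, stood at 1.32 ± 0.0714 and 1.31 ± 0.185 FPKM. In Crk, Rhoc, Limk1 and Fgd4 the groups overlapped.

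The remaining members act in metabolism or stand alone. Txnip, an inhibitor of thioredoxin that also limits glucose uptake (chromosome 3, 96557957 to 96561857), stood at 150.4, 127 and 109 FPKM in controls and at 140.0, 158, 139 and 171 FPKM in mimic ankles. Control replicate 2 lay among the mimic ankles and the other controls below them. The log2 fold change was 0.25 (SE 0.13, 95% interval -0.049 to 0.54, limma adjusted p = 0.350), and 21.6% of its exon bases are shared with Gm15441. Pfkp, the platelet form of phosphofructokinase, stood at 12.2, 15.9 and 16.5 FPKM in controls and at 14.5, 12.0, 13.8 and 12.4 FPKM in mimic ankles. As with Crk, control replicate 2 lay among the mimic ankles, and the log2 fold change was -0.16 (95% interval -0.44 to 0.12). Ddhd1, a phospholipase, stood at 5.61 ± 0.527 and 5.27 ± 0.634 FPKM, and Ccng2, an unconventional cyclin linked to cell cycle arrest, at 13.5 ± 0.443 and 14.3 ± 1.23 FPKM. App, the amyloid precursor protein and the most abundant member per exon length, stood at 195 ± 14.2 and 194 ± 14.9 FPKM, with a 95% interval of the log2 fold change from -0.21 to 0.20.

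**Figure D5:**
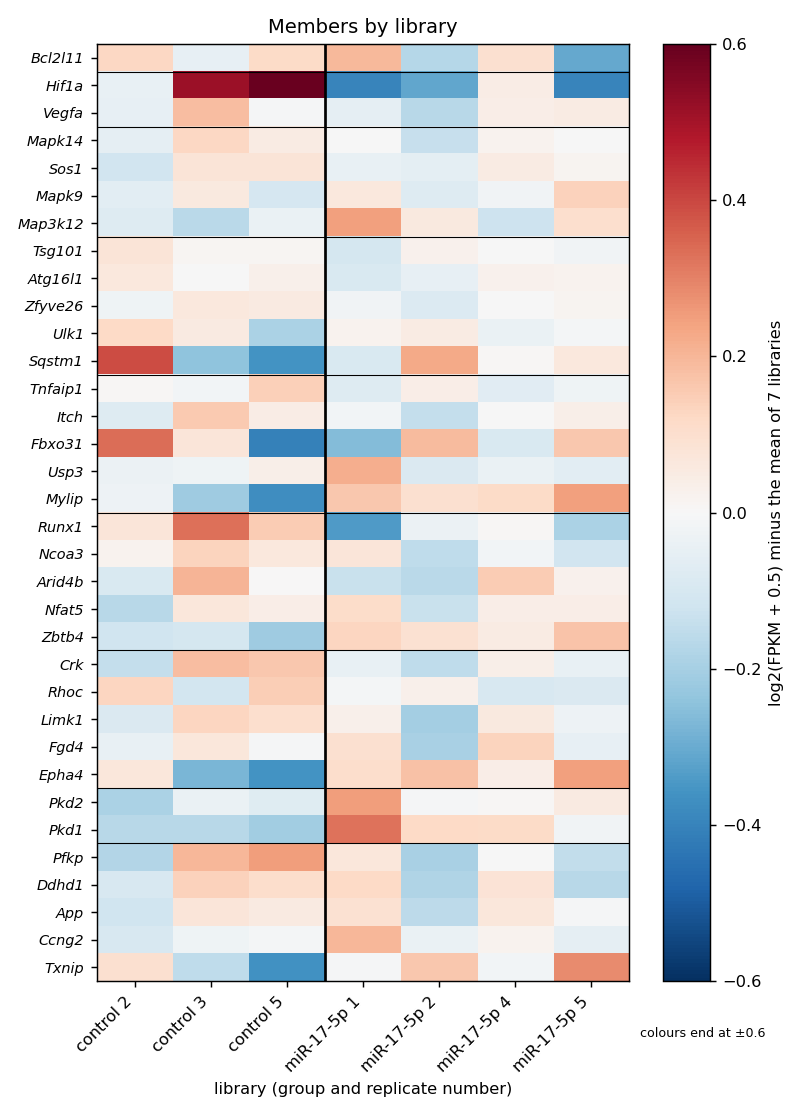
Each row is a member, ordered by role, and each column a library; colour is log2(FPKM + 0.5) minus the member's mean over the 7 libraries, ending at 0.6 in either direction. Hif1a is high in control replicates 3 and 5 and low in mimic replicates 1, 2 and 5, and most other rows differ as much within the groups as between them.

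The highest and lowest values of the members were spread unevenly over the libraries. Mimic replicate 2 held the lowest value of the 7 libraries for 13 of 34 members and the highest for 0. Control replicate 5 held the lowest for 9. Control replicate 3 held the highest for 10 and mimic replicate 1 for 8. Relative to the control mean, the median member stood at -0.081 log2 units in mimic replicate 2, between -0.014 and -0.0031 in the other mimic ankles, and between -0.051 and 0.062 in the controls. Over all genes tested the median of mimic replicate 2 was -0.037, also the lowest of the 7 libraries. Its median-of-ratios scaling factor, 0.9746, was the lowest too, and these values were not rescaled. Highest and lowest libraries were not counted over all genes. Within groups the median coefficient of variation of a member was 8.41% in controls and 8.04% in mimic ankles. The tested members rested on 135 to 21087 reads per library, out of 27465276 to 31118975 reads assigned to genes.

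Reported miR-17 targets that belong to signalling and cell cycle families were read from a list of 16, all tested. None passed over all genes. At an unadjusted p under 0.05, 0 were higher and 3 lower, beside 7.48% and 10.1% of all genes tested. A 7mer or 8mer was held by 15 of 16, against 21.4% of genes, which is no independent evidence for the reason given above. Their median log2 fold change was -0.14, or -0.073 over those with a mean of at least 5 FPKM. The 3 were Smad7, an inhibitor of TGF-beta signalling, at 6.35 ± 0.230 and 4.82 ± 0.238 FPKM, Stat3, the transducer of interleukin 6 signals, at 70.4 ± 5.25 and 57.8 ± 4.17 FPKM, and E2f3, a cell cycle factor, at 5.36 ± 0.308 and 4.72 ± 0.181 FPKM. Smad7 and Stat3 kept that p in all 7 fits that left out 1 library and E2f3 in 2. The difference between this list and the 34 members was not tested.

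The ankle was checked by markers of its tissues. All listed markers of cartilage, bone, synovial fibroblasts, macrophages, neutrophils, skeletal muscle, adipocytes and erythroid cells that were found, 47 of 48, were above 0 in every library. Skeletal muscle sums varied within groups, from 870.1 to 4913 FPKM in controls and from 1816 to 6647 FPKM in mimic ankles. Erythroid sums varied from 51.4 to 205 and from 77.0 to 553 FPKM.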

How the data were processed

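Libraries from 3 control and 4 mimic ankles were grouped by their labels. The deposited values are FPKM per gene, per the file headers, beside gene coordinates and joined exon lengths. Tools named, per the submitters' processing notes and with no role, are STAR 2.5.2b, bcl2fastq 2.20, DESeq2 1.14.1, Subread and featureCounts, with builds mm10 and GRCm38. No source used here gives the strand setting or annotation release. FPKM times exon length, divided by its smallest nonzero value in each library, gave whole numbers (within 0.01) for 100% of values. That smallest value was taken as a single read, and depth is the sum of the reads so assigned to genes. Symbols came from RefSeq (25275 of 27179 genes).

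Limma 3.58.1 in R 4.3.3 (lmFit, eBayes with trend) was fitted to log2(FPKM + 0.5) for the 13418 genes that averaged 1 FPKM or more, with group as the factor and Benjamini-Hochberg adjustment over all of them, 2-sided, at 0.05. Fold changes on that scale understate changes of low genes. UTRs were taken from the base after the stop codon of protein-coding transcripts, the longest per gene. The limma fit was tested on simulated data. The members, lists and tests were chosen with earlier results of these data known. Values per library are given for the 5 members with the smallest p in each direction and for 9 chosen by name, 3 of them among the former. Fbxo31 and Epha4 were added after their values were seen. Up to 3 genes with the smallest p are named per pathway list, and P4ha1 and Map2k6 were added after their values were seen. Alternatives were other pseudocounts, filters, scalings, limma-voom, a replicate block and leaving out each library. Python 3.11.15 and pandas 2.3.3 were also used.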

Additional observations from a re-analysis of the deposited data

Results flagged for a closer look

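Among the 34 members, the 4 mimic ankles were searched for a value set far apart from the other 3, by Dixon's criterion (the gap over the range). By chance about 1 in 20 groups meets it, and 3 of 34 did. Hif1a stood at 61.4 FPKM in mimic replicate 4, against 45.1 to 47.9 FPKM in the other mimic ankles (ratio 0.83). Mapk14 stood at 31.6 FPKM in mimic replicate 2, against 34.8 to 35.4 FPKM (ratio 0.834). Usp3 stood at 15.3 FPKM in mimic replicate 1, against 12.3 to 12.7 FPKM (ratio 0.858).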

How the results depend on the processing

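Over all genes, 0 passed, against 1 with no filter on low values and 0 to 318 when 1 library was left out, the 318 without control replicate 2. Members that passed numbered 0 to 2 over the same fits, again 2 without control replicate 2 (Mylip and Hif1a). Members with an unadjusted p under 0.05 numbered 3 to 5 higher and 2 to 4 lower. The shares of all genes tested, 7.48% and 10.1% in the main fit, were not counted in these fits. Hif1a, Mylip, Zbtb4 and Pkd1 were among these members in all 7 fits that left out 1 library and Runx1 in 6. Those fits share most of their libraries, and the share of all genes that did the same was not counted. With the replicate number as a block, members with such a p numbered 0 higher and 1 lower. The 1 was Bcl2l11 (-0.357, limma unadjusted p = 0.0305) and none of those 5. In that fit only replicates 2 and 5 occur in both groups (correlation of deviations 0.54 and -0.43), so the numbers are not taken as pairs. The members' median log2 fold change, the same over members with a seed match because all have one, ran from -0.0604 to 0.0069, the latter without control replicate 3. Leaving out 1 library, the list medians ran from -0.2112 to -0.0897 for other reported targets (-0.0729 at a mean of at least 5 FPKM), from 0.0014 to 0.0698 for core autophagy, from -0.0855 to -0.0481 for the JNK and p38 cascade (-0.0224 with the replicate block) and from -0.1156 to 0.0054 for the BCL-2 family (-0.2029 with the block). An 8mer alone was held by 18 members.

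Of 33 members, 24 kept their direction in every alternative and 9 did not. Fbxo31 was at 0.0007 with a pseudocount of 0.1, 0.0119 with median-of-ratios scaling, 0.0038 with quantile normalization, 0.0197 with limma-voom and 0.2121 with the block. App was at 0.0083, 0.0067 and 0.013 with the 2 scalings and limma-voom, Fgd4 at 0.0001 with median-of-ratios scaling and 0.0051 with limma-voom, and Usp3 at -0.0763 with the block. Leaving out 1 library gave -0.2034 to 0.1672 for Fbxo31, -0.0657 to 0.0483 for App, -0.054 to 0.056 for Fgd4, -0.0548 to 0.0478 for Usp3, -0.0873 to 0.0089 for Sos1, -0.0833 to 0.0714 for Ulk1, -0.0249 to 0.352 for Sqstm1, -0.0375 to 0.0851 for Nfat5 and -0.1294 to 0.0162 for Arid4b. Where not named above, the cause was not tested.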
